A study of Mus musculus with 7 samples.

Results

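The endocannabinoid genes described here are the receptor gene Cnr1 and 7 genes of the enzymes that make and break down its 2 main ligands: Dagla, Daglb, Mgll, Abhd6, Abhd12, Napepld and Faah. They are 8 of the 27583 genes in the table and were chosen by name as a pathway. Dagla had also been noticed in an earlier look at these values, because its level followed that of the clock gene Per2, so its relation to Per2 is a description here and not a finding. Expression was measured by RNA sequencing of the hippocampus of male wild-type (WT) C57BL6/J mice in 7 libraries, called replicates 1 to 7. The series was designed to set hippocampus after spinal cord injury against that of healthy controls, but the labels of all 7 samples are alike, do not say which animal was injured, and give no age or time after injury. No comparison between conditions was therefore made, all libraries stand in 1 group, and any difference between them may include the effect of injury. The labels do not state whether the libraries come from different animals, so p-values below reflect variation among these 7 samples, part of which may be technical.

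Endocannabinoids are lipid messengers that are made on demand, mostly in the postsynaptic neuron, and travel backwards across the synapse to dampen transmitter release. The diacylglycerol lipases encoded by Dagla and Daglb make 2-arachidonoylglycerol (2-AG), and 3 serine hydrolases, the products of Mgll, Abhd6 and Abhd12, break it down. The second ligand, anandamide, can be released from its membrane precursor by the phospholipase D encoded by Napepld and is degraded by the amide hydrolase encoded by Faah. The CB1 receptor, the product of Cnr1, is a G protein-coupled receptor on axon terminals. In the hippocampus its transcript is richest in interneurons that contain cholecystokinin (CCK), with lower levels in pyramidal cells, and it is also strongly expressed in projection neurons of the striatum.

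The clock protein encoded by Per2, which the series title names, represses transcription driven by CLOCK and BMAL1 at E-boxes. Those proximal promoters of the 8 genes that were at hand were therefore searched for the canonical E-box CACGTG. The motif reads the same on both strands and no other E-box form was searched. RefSeq promoter windows (GRCm38.p6, 250 bases before to 50 after a start) were at hand for 6 of the 8 genes, with 10 start sites. No window was at hand for Dagla, Abhd12 or Per2, so these were not searched. Of the 10 start sites 2 held the motif, against 7.15% of all 32851 start sites. Those windows, at 1 of the start sites of Cnr1 (chr4:33924394-33924693, plus strand) and of Mgll (chr6:88724162-88724461, plus strand), are shown because they are the only member windows with the motif, which is in capitals.
Cnr1: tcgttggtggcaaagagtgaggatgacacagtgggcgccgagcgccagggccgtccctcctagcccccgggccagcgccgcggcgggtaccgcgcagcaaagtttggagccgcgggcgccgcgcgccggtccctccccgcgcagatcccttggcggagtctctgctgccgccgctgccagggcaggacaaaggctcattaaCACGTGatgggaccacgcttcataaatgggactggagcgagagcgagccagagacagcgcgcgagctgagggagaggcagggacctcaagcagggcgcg
Mgll: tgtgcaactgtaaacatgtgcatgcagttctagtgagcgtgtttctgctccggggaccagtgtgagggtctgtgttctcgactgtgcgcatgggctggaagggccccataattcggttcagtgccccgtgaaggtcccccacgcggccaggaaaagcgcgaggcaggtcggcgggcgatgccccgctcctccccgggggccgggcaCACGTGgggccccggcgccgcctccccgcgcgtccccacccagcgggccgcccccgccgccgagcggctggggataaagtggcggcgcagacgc
The match began 49 bases upstream of the start in Cnr1 and 44 bases upstream in Mgll. The windows of Daglb, Abhd6, Napepld and Faah, and the other windows of Cnr1 and Mgll, did not contain these letters, which says nothing about whether a factor binds there. A match in sequence is not a measured binding site.

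Values are FPKM (fragments per kilobase of gene, scaled to a fixed number of mapped fragments), as deposited. Depth, estimated from the steps between low values, was 37324418 to 38448101 reads per library. The 12052 genes whose median FPKM reached 1 served as background and are called the genes kept. Markers of hippocampal neurons were found in each library: summed FPKM was 112 to 139 for 6 dentate granule cell genes, 78.9 to 123 for 5 CA1 genes and 79.5 to 122 for 5 CA2 and CA3 genes, with none at 0. Replicate 5 stood apart from the other 6 libraries. Its summed FPKM over 10 genes of striatal projection neurons was 1725, against 49.7 to 62.2 elsewhere, and all 10 were highest there. Most markers of hippocampal neurons were lowest there, 5 of 6 for dentate granule cells, 4 of 5 for CA1 and 4 of 5 for CA2 and CA3. Prox1 of granule cells had 6.75 FPKM in replicate 5 and 11.6 to 16.9 elsewhere, and Gpr161 of CA1 had 4.12 and 9.07 to 12.4, whereas Calb1, which makes up most of the dentate sum there, was highest in replicate 5 at 78.4, with 49.9 to 55.4 elsewhere. Several results that rest on replicate 5 are given with and without it. The nearest profiles were taken over all 7 libraries only.

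All 8 genes were expressed in each library, and 5 of them, Dagla, Mgll, Abhd6, Napepld and Faah, had their lowest value in replicate 5, where Cnr1 had its highest. Of all genes kept, 26.0% were lowest and 21.1% highest in replicate 5. The 13 of 16 hippocampal neuron markers that were lowest in replicate 5 stood low beside these 5 genes, and their part in the values was not tested. The ratio of the highest to the lowest library was above 2 for Cnr1, Napepld and Faah, against 7.42% of all genes kept, and above 1.5 for these and Dagla, against 24.5%. Its median was 1.57 over the 8 genes and 1.31 over all genes kept. Without replicate 5 the medians were 1.26 and 1.25, none of the 8 ratios was above 1.5, and 13.6% of all genes kept still had such a ratio. With replicate 5 included, Daglb and Abhd12 were the steadiest of the 8, with ratios of 1.13 and 1.15. Without it the ratios were 1.13 for Daglb, 1.14 for Abhd6 and 1.15 for Abhd12.

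**Figure D1:**
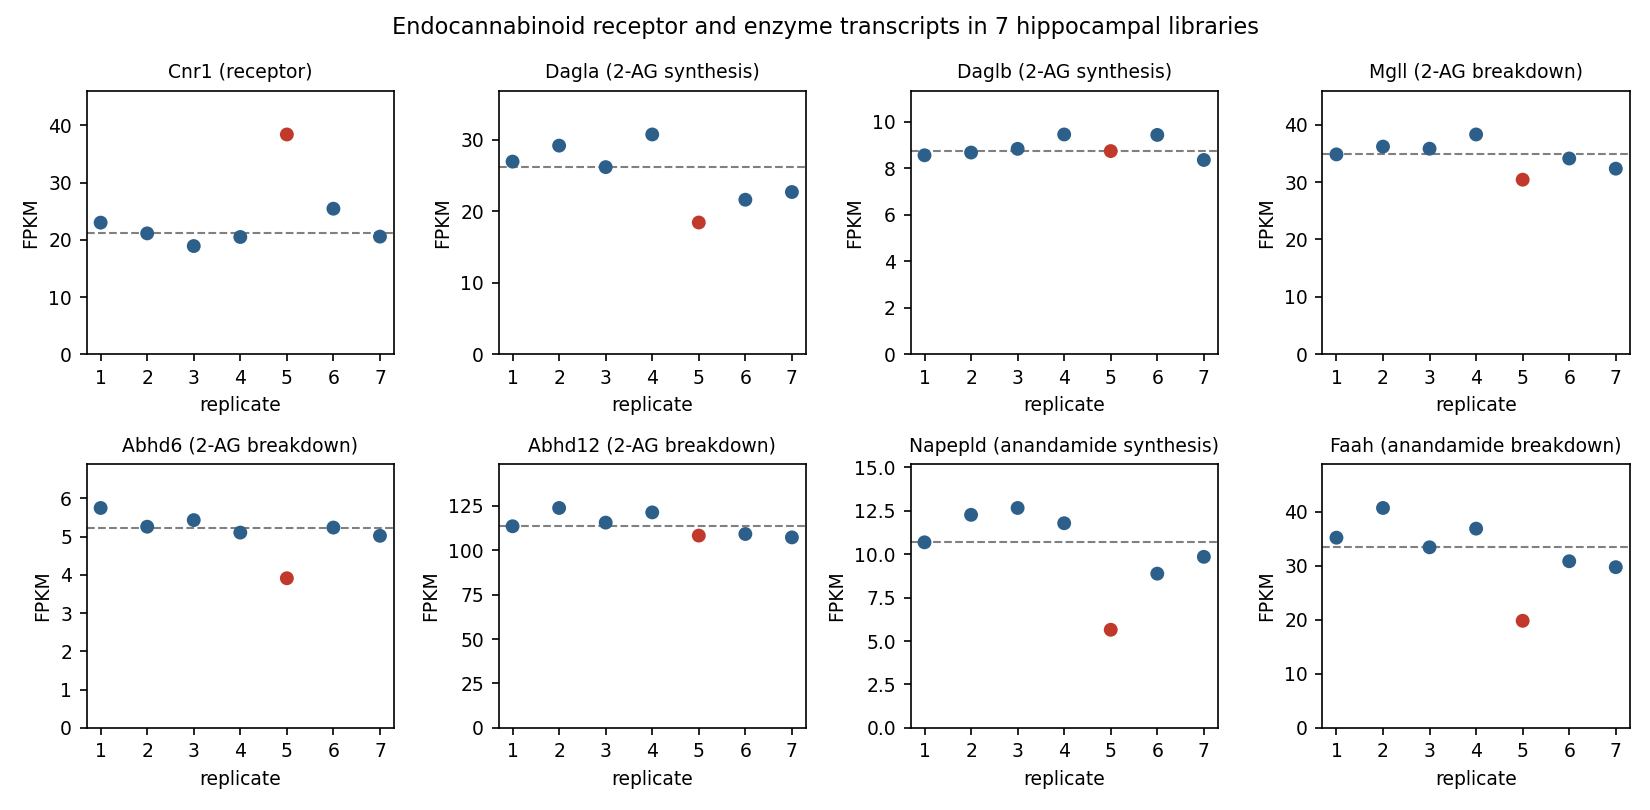
FPKM of the 8 genes in each of the 7 libraries, 1 panel per gene, with the vertical axis starting at 0. Each point is 1 library, replicate 5 is red, and the dashed line is the median. Cnr1 is highest in replicate 5 at 38.4, while Napepld at 5.65 and Faah at 19.8 are lowest there.

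Cnr1, the CB1 receptor gene, lies on the plus strand of chromosome 4 from 33924593 to 33948831 (mm10, GENCODE M21). It had 23.0, 21.1, 18.9, 20.5, 38.4, 25.4 and 20.6 FPKM in replicates 1 to 7. Replicate 5 was high, replicate 6 came next, and the remaining 5 libraries lay close together. The replicate 5 value was 1.84 times the median of the other 6 libraries, and the ratio of highest to lowest was 2.03 with it and 1.34 without it. Of the genes kept, 6.97% had a larger ratio over the 7 libraries. With an estimated 4654 reads in the lowest library, counting error was about 1.47%, which covers neither library preparation nor variation between samples.

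The markers of neurons that express Cnr1 did not stand on the same side in replicate 5. The list of CCK basket interneuron genes, 5 of 5 found, summed to 189 FPKM in replicate 5 and 291 to 337 elsewhere, and 4 of the 5 were lowest there. The sum is mostly Cck. Cck itself, the cholecystokinin gene that pyramidal cells also express, had 168 in replicate 5 and 260 to 302 elsewhere. The receptor gene Npy2r had 8.72 in replicate 5 and 14.7 to 19.4 elsewhere. Slc17a8, a vesicular glutamate transporter gene of the same list, went the other way, with 2.47 in replicate 5 and 1.12 to 1.32 elsewhere. The general inhibitory neuron genes Gad1, Gad2 and Slc32a1 summed to 179 in replicate 5 and 93.8 to 104 elsewhere, and each was highest there. Among striatal genes, the dopamine receptor gene Drd1 had 46.4 in replicate 5 and 0.576 to 1.02 elsewhere. The part of these cell types in the Cnr1 value was not tested. In bulk tissue, fewer cells of a type and less RNA per cell cannot be told apart.

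**Figure D2:**
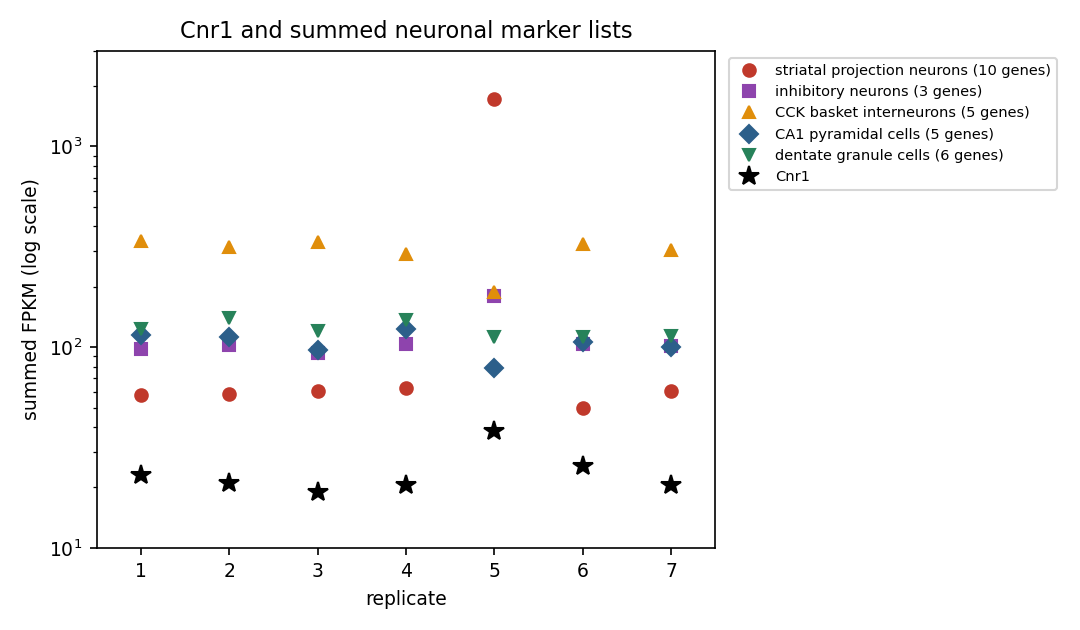
FPKM of Cnr1 and summed FPKM of 5 neuronal marker lists in each library, on a logarithmic axis. In replicate 5 the striatal list stands at 1725 and the inhibitory list at 179, both above the other libraries, and the CCK list stands at 189, below the other libraries, while Cnr1 is at 38.4.

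Of the enzymes that make 2-AG, Dagla varied between libraries and Daglb did not vary much. Dagla, the main synaptic diacylglycerol lipase gene of the adult brain, is on chromosome 19, minus strand, at 10245265 to 10304877. It had 26.9, 29.2, 26.2, 30.7, 18.4, 21.6 and 22.7 FPKM in replicates 1 to 7. Replicates 5, 6 and 7 were low and replicates 2 and 4 high, with a ratio of highest to lowest of 1.67, or 1.42 without replicate 5. Daglb, which serves 2-AG synthesis in microglia among other cells, lies on the plus strand of chromosome 5 from 143464584 to 143505942. It had 8.55, 8.67, 8.83, 9.44, 8.73, 9.42 and 8.35 FPKM, with replicate 5 in the middle. Of the genes kept, 93.4% had a larger ratio of highest to lowest than Daglb. Exons of Daglb overlap those of Rac1 on the opposite strand over 2309 bases. Whether counting used strand is not given in the sources used here, so part of the Daglb value may be reads of Rac1, which had 132 to 156 FPKM.

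The ratio of Dagla to Daglb within a library was 3.15, 3.37, 2.97, 3.26, 2.11, 2.29 and 2.72 in replicates 1 to 7. It was lowest in replicates 5 and 6, and Dagla was above Daglb in each library. The possible share of Rac1 reads in the Daglb value applies to this ratio as well.

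The 2-AG hydrolase genes differed 21.7-fold in their median level, with Abhd12 highest and Abhd6 lowest in each library. Abhd12, whose product hydrolyses 2-AG and lysophosphatidylserine, had 114, 124, 116, 121, 108, 109 and 107 FPKM in replicates 1 to 7. It was highest in replicates 2 and 4 and lowest in replicates 5, 6 and 7, within a ratio of 1.15. Mgll, which encodes monoacylglycerol lipase, the main 2-AG hydrolase of brain, had 34.8, 36.2, 35.8, 38.3, 30.4, 34.1 and 32.3 FPKM. It was lowest in replicate 5 and highest in replicate 4. Abhd6, a postsynaptic membrane hydrolase gene, had 5.75, 5.26, 5.43, 5.11, 3.91, 5.24 and 5.02 FPKM. Replicate 5 was low and the other 6 libraries lay between 5.02 and 5.75, so that the ratio of highest to lowest was 1.47 with it and 1.14 without it. Cnr1 and Abhd6 were the 2 of the 8 genes in which 1 library stood apart by Dixon's gap limit for 7 values, against 9.72% of all genes kept. The lowest Abhd6 value rests on an estimated 349 reads, with a counting error of 5.35%, the largest of the 8 genes.

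As a share of the summed FPKM of these 3 hydrolases, Abhd12 took 73.5% to 75.9%, Mgll 21.3% to 23.2% and Abhd6 2.74% to 3.73%. The lowest shares of Mgll and Abhd6 and the highest share of Abhd12 were in replicate 5. The transcript share is not a share of enzyme activity. Abhd12 is on chromosome 2, minus strand, at 150832493 to 150904741, Mgll on the plus strand of chromosome 6 from 88724412 to 88828360, and Abhd6 on the plus strand of chromosome 14 from 8002902 to 8056763. Exons of Mgll overlap the opposite-strand gene Gm26588 over 167 bases, but that gene did not exceed 0.164 FPKM.

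The anandamide genes Napepld and Faah were low together in replicate 5. Napepld is on chromosome 5, minus strand, at 21662901 to 21701396. It had 10.7, 12.3, 12.7, 11.8, 5.65, 8.88 and 9.85 FPKM in replicates 1 to 7. Replicate 5 was far below the rest and replicates 6 and 7 were the next lowest. Its ratio of highest to lowest, 2.24, was the largest of the 8 genes, and 4.88% of the genes kept had a larger one. Without replicate 5 it was 1.43.

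Faah, on chromosome 4, minus strand, at 115967145 to 116017926, had 35.2, 40.7, 33.4, 36.9, 19.8, 30.9 and 29.8 FPKM. It too was lowest in replicate 5, and highest in replicate 2. Its ratio was 2.05, or 1.37 without replicate 5. The replicate 5 values were 0.503 times the median of the other libraries for Napepld and 0.577 times for Faah. Because both were low in the same library, the ratio of Napepld to Faah stayed between 0.285 and 0.379, with a median of 0.303.

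**Figure D3:**
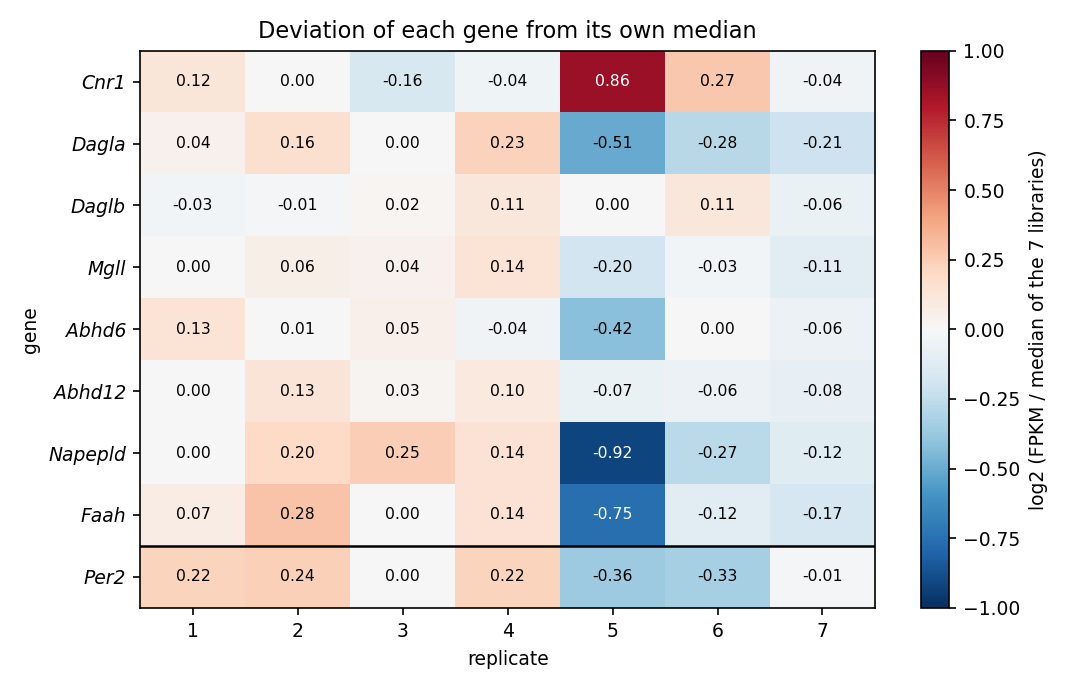
Deviation of each gene from its own median over the 7 libraries, as log2 of the FPKM ratio, with genes in rows and replicates in columns; Per2 stands under the line. Replicate 5 shows the largest deviation for Cnr1, at 0.86, and, in the other direction, for Napepld at -0.92, Faah at -0.75 and Dagla at -0.51.

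Genes of synthesis and breakdown shared another feature of their order. Replicates 2 and 4 held the highest and the second highest value of Dagla, Mgll, Abhd12 and Faah, which was so for 7.87% of all genes kept, and for the same 4 members and 9.58% of all genes kept without replicate 5. The count was made after the values had been seen. The ratio of Dagla to Mgll, a transcript measure of 2-AG synthesis against breakdown, was 0.774, 0.806, 0.731, 0.803, 0.606, 0.634 and 0.702 in replicates 1 to 7. It was lowest in replicates 5 and 6 and varied less than Dagla itself. The ratio of Cnr1 to Dagla, computed after the values had been seen, was 2.08 in replicate 5, 1.18 in replicate 6 and 0.667 to 0.907 in the other libraries.

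**Figure D4:**
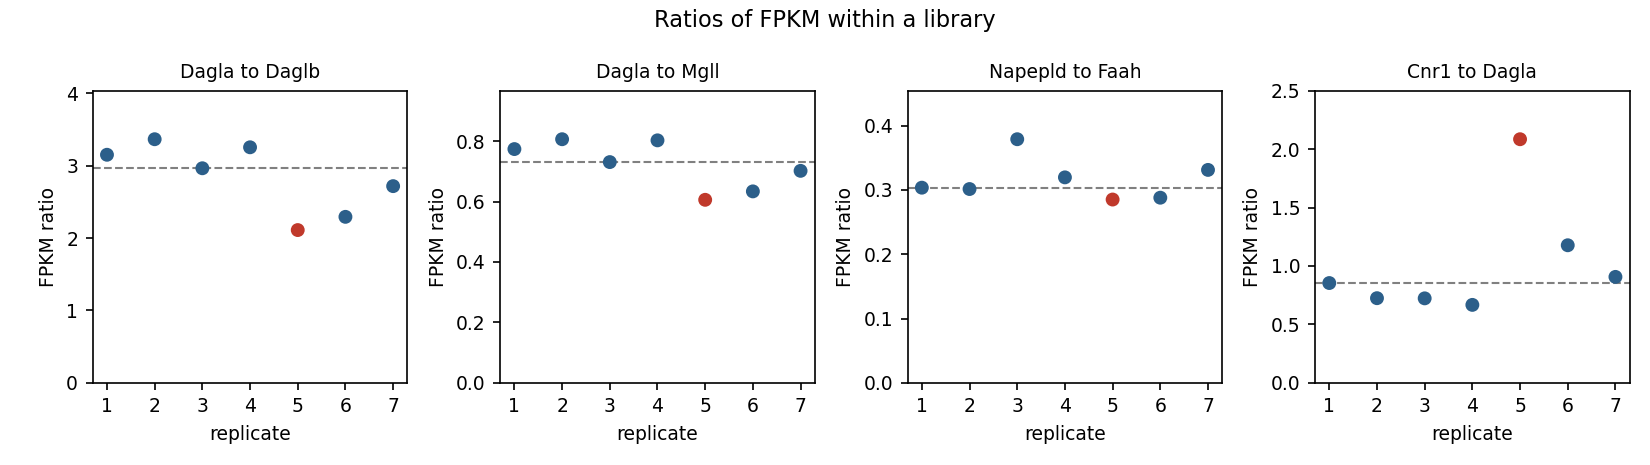
Ratios of FPKM within a library, 1 panel per pair of genes, with the vertical axis starting at 0, replicate 5 in red and the median dashed. Dagla to Daglb and Dagla to Mgll are lowest in replicates 5 and 6, and Cnr1 to Dagla exceeds 1 in those libraries only.

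In order of median level the genes ran Abhd12 (114 FPKM), Mgll (34.8), Faah (33.4), Dagla (26.2), Cnr1 (21.1), Napepld (10.7), Daglb (8.73) and Abhd6 (5.24). FPKM is corrected for gene length, which allows levels of different genes to be set side by side, within the accuracy of the lengths the authors used. Neighbours in this order were compared within libraries on log2(FPKM + 1) by exact sign-flip permutation, two-sided, adjusted by Benjamini-Hochberg over 7 pairs. The smallest p that 7 libraries allow is 0.0156, which 4 pairs reached, each with an adjusted p of 0.0273 and the same direction in 7 of 7 libraries. Abhd12 was above Mgll by 1.70 ± 0.058 on the log2 scale (SD, n = 7), and Faah above Dagla by 0.34 ± 0.13. Cnr1 was above Napepld by 1.15 ± 0.69, or by 0.91 without replicate 5, and Daglb above Abhd6 by 0.70 ± 0.16. Reads of Rac1 may raise the Daglb value in each library, so the place of Daglb in this order carries that limit.

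The other 3 neighbouring pairs did not differ beyond their spread. Mgll minus Faah was 0.12 ± 0.23 on the log2 scale (SD, n = 7, exact permutation adjusted p = 0.328), with Faah higher in replicates 1 and 2. Dagla minus Cnr1 was 0.081 ± 0.55 (exact permutation adjusted p = 0.75), and Napepld minus Daglb was 0.16 ± 0.36 (exact permutation adjusted p = 0.346). In both of these pairs replicates 5 and 6 had the reverse order. Without replicate 5, Dagla minus Cnr1 was 0.26 (exact permutation adjusted p = 0.146). Napepld minus Daglb was then 0.28 (exact permutation adjusted p = 0.0875). Cnr1 ranked 5 of the 8 genes in replicates 1 to 4 and 7, but 4 in replicate 6 and 2 in replicate 5, where only Abhd12 was higher.

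The series title ties Per2 to depression after injury, which raises the question of whether endocannabinoid genes vary with Per2 across libraries. Per2 had 6.79, 6.87, 5.83, 6.79, 4.53, 4.63 and 5.78 FPKM in replicates 1 to 7, with replicates 5 and 6 low and apart from the rest. A slope on Per2 therefore cannot be told apart from a difference of those libraries from the others. In limma-trend fitted over 12051 genes with Benjamini-Hochberg adjustment, 0% of genes and 0 of the 8 passed an adjusted p of 0.05, while 20.4% of all genes had an unadjusted p under 0.05. limma without the trend also called 0, with 2444 genes at an unadjusted p under 0.05.

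The slopes below give the change in log2(FPKM + 1) per unit of log2(FPKM + 1) of Per2, with standard errors. They were 1.33 ± 0.35 for Napepld (limma adjusted p = 0.125), 1.23 ± 0.30 for Faah (adjusted p = 0.124) and -1.09 ± 0.37 for Cnr1 (adjusted p = 0.163). Mgll had 0.36 ± 0.16 (0.244), Abhd6 0.43 ± 0.22 (0.290), Abhd12 0.28 ± 0.14 (0.288) and Daglb -0.051 ± 0.16 (0.877). Dagla, chosen for this relation, had a slope of 1.07 ± 0.19.

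The slopes rest in part on single libraries. Without replicate 5 they were 0.68 for Napepld, 0.67 for Faah, -0.36 for Cnr1, 0.23 for Mgll, 0.076 for Abhd6 and 0.90 for Dagla, with limma adjusted p from 0.374 to 0.900 over the 7 genes other than Dagla. Without replicate 6, limma called 1107 genes, 9.19% of those tested, among them Faah (slope 1.73, adjusted p = 0.00300) and Napepld (1.69, 0.0225). The slope of Dagla was then 1.25, given as a description because the gene was chosen for this relation. With the summed striatal marker level as a covariate 0 genes passed, and the slopes were 0.70 for Napepld, 0.67 for Faah and -0.39 for Cnr1. That marker level stood apart in replicate 5 only, so this fit nearly repeats the fit without replicate 5. It is not a separate check of cell composition.

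Other genes of the pathway, 40 in a list of 4 role groups, were all found in the table, and 27 had a median FPKM of at least 1. Of the 27, 9 were lowest and 9 highest in replicate 5, beside 26.0% and 21.1% of all genes kept. Their median ratio of highest to lowest was 1.41, or 1.22 without replicate 5. In the limma fit on Per2, 0 of the 27 passed the adjusted p of 0.05, and 5 had an unadjusted p under 0.05 with a positive and 6 with a negative slope, beside the 20.4% of all genes.

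Among other receptors and CB1 partners, 7 of 9 genes had a median under 1. Cnr2, the CB2 receptor gene of immune cells, had 0.0182 to 0.120 FPKM, Gpr55 0.00369 to 0.0329, and Gpr119 was listed at 0 in each library. Trpv1, an ion channel gene whose product anandamide can open, did not exceed 0.0293. Cnrip1, whose product binds the tail of CB1, had 32.8 in replicate 5 and 45.4 to 52.3 elsewhere, and so was lowest in the library in which Cnr1 was highest. Sgip1, which encodes another CB1-binding protein, had a range of 15.8 to 18.6.

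All 11 genes that act upstream of 2-AG release were kept. Their median ratio was 1.47, or 1.27 without replicate 5, beside 1.31 and 1.25 for all genes kept. Of the 11, 5 were lowest and 3 highest in replicate 5, beside 26.0% and 21.1% of all genes kept. The muscarinic receptor gene Chrm3 had 9.05 FPKM in replicate 5 and 11.5 to 15.5 elsewhere. Gna11, a G protein subunit gene, ranged from 35.3 to 43.4 and was also lowest in replicate 5. Plcb4, a phospholipase C gene, varied most, at 1.49, 1.70, 4.04, 2.55, 3.60, 2.06 and 5.29 in replicates 1 to 7. It was highest in replicates 7 and 3, in which the summed thalamic marker list was 77.6 and 77.8, against 22.6 to 43.2 elsewhere. The choroid plexus list was highest in the same libraries, at 1096 and 838, against 23.9 to 247 elsewhere. The part of either tissue in the Plcb4 value was not tested. Among the 3 highest in replicate 5 were the group 1 metabotropic glutamate receptor gene Grm5 (27.5 to 37.1) and the phospholipase gene Plcb1 (9.69 to 16.4). These were chosen after their values were seen.

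Of 12 further synthesis genes 8 were kept, with a median ratio of 1.21 and 5 of the 8 highest in replicate 5, beside 21.1% of all genes kept. Plaat1, whose product transfers acyl chains in the making of anandamide precursors, had 8.20 FPKM in replicate 5 and 4.41 to 5.10 elsewhere. It was thus highest in the library in which Napepld was lowest. Plaat3 of the same family ranged from 9.19 to 12.6 and was also highest in replicate 5. Ddhd2, a brain lipase gene, varied least, from 11.2 to 12.1.

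For each of the 8 genes the 3 genes with the nearest profile were found by the root mean square (RMS) difference of log2(FPKM + 1), each centred on its median, over 7 libraries. Nearest to Cnr1 were the adhesion molecule gene Alcam (RMS difference 0.041), the delta opioid receptor gene Oprd1 (0.067) and the calcium channel subunit gene Cacna2d3 (0.079), where the RMS of Cnr1 itself was 0.34. Each of the 3 was highest in replicate 5: Alcam had 42.2 FPKM there and 20.2 to 26.6 elsewhere. Nearest to Dagla were Gm34583 (0.030), Rere (0.042) and Adgrb2 (0.044), against an RMS of 0.24 for Dagla. Nearest to Napepld were Nbl1 (0.073), Dlk2 (0.081) and Syt13 (0.089), and to Faah Plppr2 (0.043), Stum (0.050) and Rapgefl1 (0.057), against an RMS of 0.34 for Napepld and 0.31 for Faah.

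Abhd6 was nearest to the kinase gene Mapk10 (0.022), which had 36.6 FPKM in replicate 5 and 43.8 to 48.8 elsewhere, then to AA388235 (0.026) and Mtrr (0.033). Mgll was nearest to the ubiquitin ligase gene Trim32, the clock kinase gene Csnk1d and Rnf41, Abhd12 to Mgrn1 and Dhodh, and Daglb to Acox3, Elovl2 and Rab3gap1, with RMS differences of 0.021 to 0.029. The RMS of Mgll itself was 0.0998, that of Abhd12 0.075 and that of Daglb 0.059. These 3 genes varied little, so a small RMS difference is easier to reach for them. None of the nearest genes was another of the 8.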

How the data were processed

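Libraries from 7 hippocampal samples were built with a SMARTer mRNA-seq kit, per the labels' protocols. A single table of FPKM for 27583 genes was deposited by the authors, and its name gives the unit. The build mm10 is given in the submitters' processing notes, while the aligner, counter, annotation and filters were not given in the sources used here. Depth and length are corrected for in FPKM, RNA composition is not. Columns were matched to samples by library name, and no condition was inferred. The members and gene lists were chosen with earlier results of these data known.

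The 12052 genes whose median FPKM reached 1 were kept. The scale for tests was log2(FPKM + 1), which understates changes of low genes. Relative depth came from the step of low values, and absolute depth from single-exon genes seen in 1 library. Read numbers use GENCODE M21 exonic lengths, are estimates, and cover counting error only. limma regressed each gene on Per2 and was tested on simulated data. Neighbours in level were compared by exact sign-flip permutation. A library stood apart where its gap took over 0.568 of the range. Named genes are the 8 members, Per2, the 2 most and 1 least variable genes of each pathway role group, the 3 nearest profiles per member and fixed cell type markers (1 nearest profile is not reported here); others were chosen after their values were seen. Alternatives were a pseudocount of 0.1, median FPKM minima of 0.1 and 5 or none, rescaling to a sum of 1000000, upper-quartile scaling, limma without trend, a striatal covariate, and leaving out each library. Tools were limma 3.58.1 in R 4.3.3, and pandas 2.3.3, numpy 2.4.6 and matplotlib 3.10.9 in Python 3.11.15.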

Additional observations from a re-analysis of the deposited data

Results flagged for a closer look

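Replicate 5 lay far from the other 6 libraries for Cnr1 and Abhd6. For Cnr1 its value of 38.4 FPKM was followed by 25.4 in replicate 6, a gap that took 0.665 of the range. For Abhd6 its value of 3.91 was below 5.02 in replicate 7, a gap of 0.604 of the range. The limit for 7 values is 0.568, chance flags about 1 in 20 genes, and 9.72% of all genes kept had such a gap, beside 2 of the 8 endocannabinoid genes. Napepld and Faah, also lowest in replicate 5, had gaps of 0.461 and 0.475, under the limit.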

How the results depend on the processing

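The number of the 8 genes whose ratio of highest to lowest library exceeded the median of all genes kept was 5. It was 4 to 5 when 1 library was left out, 6 after rescaling to a sum of 1000000 and 5 under upper-quartile scaling. The 4 was without replicate 5, where as many of the 8 genes exceeded that median as did not. The ratios to library extremes rest on replicate 5: without it the log2 ratio was 0.43 for Cnr1, 0.20 for Abhd6, 0.51 for Napepld and 0.45 for Faah, against 1.02, 0.56, 1.16 and 1.04 with it. Rescaling to a sum of 1000000 gave 0.26 for Daglb, against 0.18 as deposited, and put Abhd12 lowest in replicate 5 as well, so that 6 of the 8 were lowest there, against 32.9% of all genes kept. Of the neighbouring pairs in level, 4 passed with 7 libraries and 0 with any 1 left out, because 6 libraries allow no p under 0.0312 and 4 such values among 7 tests cannot pass adjustment. The medians of the ratios between enzymes stayed at 2.84 to 3.06 for Dagla to Daglb, 0.716 to 0.752 for Dagla to Mgll and 0.302 to 0.311 for Napepld to Faah with 1 library left out. In the pathway list 18 of 27 genes exceeded the median ratio of all genes kept, with 17 after rescaling and 19 at a median minimum of 0.1. With 1 library left out the count was 12 to 17. The 12 was without replicate 5, where most of the 27 genes did not exceed that median. The count of genes associated with Per2 was 0 in the alternatives run with 7 libraries and 0 to 1107 with 1 library left out, the 1107 being without replicate 6; the cause was not tested. The slope of Daglb on Per2, -0.051, was 0.065 after rescaling and -0.14 to 0.061 with 1 library left out, positive without replicate 6, and was called in none of these. No paired analysis was possible because all libraries stand in 1 group.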

Other observations

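Replicates 5, 6 and 7 held the 3 lowest values of 5 of the 8 endocannabinoid genes: Dagla, Mgll, Abhd12, Napepld and Faah. This was so for 10.5% of all genes kept. Without replicate 5, replicates 6 and 7 held the 2 lowest values of the same 5 genes, against 14.1% of all genes kept. The pattern was noticed in the data, the labels give these libraries no condition of their own, and no test was made. The oligodendrocyte markers, 6 of 6 found, summed to 1579, 1513 and 1707 FPKM in replicates 5, 6 and 7, and to 1144, 875, 1141 and 1099 in replicates 1 to 4. Their part in the pattern was not tested.

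Genes of endocannabinoid oxidation and carriage differed from each other in their order across libraries. Ptgs2, which encodes the cyclooxygenase COX-2 that can oxidise 2-AG and anandamide, had 4.08 FPKM in replicate 5 and 6.24 to 8.59 elsewhere. Its next lowest values were 6.24 in replicate 6 and 6.48 in replicate 7, so it shared the pattern described above. Fabp7, a fatty acid carrier gene of astrocytes and progenitors, had 45.5, 22.2, 42.7, 29.1, 44.6, 67.0 and 60.4 in replicates 1 to 7. It was highest in replicates 6 and 7, in which the 6 astrocyte markers also had their largest sums, 343 and 329, against 288 to 311 elsewhere. Of the 6, Aqp4 and Gja1 were highest in those libraries, while Gjb6 was 22.7 and 25.2 there, within its range of 19.3 to 31.4. Slc1a3 was highest of all in replicate 6, at 113, and lowest of all in replicate 7, at 95.8. Gfap, at 55.5 and 53.1, and Aldh1l1, at 12.8 and 14.0, lay within their ranges of 38.1 to 56.8 and 11.9 to 16.8. The part of astrocytes in the Fabp7 value was not tested. Fabp3, a carrier of the same family, ranged only from 71.2 to 86.4.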
